A study of Mus musculus with 12 samples.

Results

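Interferon-stimulated genes are the genes that a cell switches on when interferon reaches its surface. The 38 genes described here were listed by symbol, 30 as members of the type I interferon response and 8 as members of the type II response, and their probes were found by matching each probe's accession to a gene table. Of the 38, 36 had at least 1 named probe (48 probes in all) and 30 were bright enough to be measured, out of 13348 genes measured in the series. The measured members comprise 23 of the 30 type I genes and 7 of the 8 type II genes. Ifit1, Ifit2, Oas1g, Oas3 and Herc6 of the type I list and Gbp6 of the type II list had probes, but fewer than 3 of the 12 arrays showed the tumour sample well above background, so they were not tested. For Mx1 and Mx2 the table named no probe. Of the 30 measured members, 19 were well above background on all 12 arrays and 29 on at least 1 array of each of the 4 groups, the exception being Rsad2, which was above background on no WT stroma array.

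The samples come from mammary tumours of FVB mice with the MMTV-Wnt1 transgene, in which a mammary tumour virus promoter active mainly in mammary epithelium drives the growth factor gene Wnt1. Tumours were either Rarb -/- (KO, lacking retinoic acid receptor beta, a nuclear receptor for retinoids) or Rarb +/+ (WT), and all of them carried the transgene. Epithelium and stroma of each of 6 tumours were cut apart by laser capture, and each RNA, labelled with Cy3, was put on a 2-colour Agilent array together with Universal Mouse Reference RNA labelled with Cy5. That gives 3 arrays for each of 4 groups, the epithelium and the stroma of KO and of WT tumours, with KO tumours numbered 1, 3 and 4 and WT tumours 1, 2 and 3. The labels give neither age nor any treatment, and do not say whether each tumour came from its own mouse, so p-values reflect only how these samples vary, which may be technical. All values below are log2 ratios of tumour sample over reference unless a difference is named. A ratio of 0 means the level of the reference, not a low level, and ratios of different probes are not compared with one another.

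Interferons are secreted proteins that warn cells of viruses, damaged DNA or activated lymphocytes. Type I interferons bind the receptor pair Ifnar1 and Ifnar2, whose kinases activate a transcription factor complex with Stat2 and Irf9 that binds the interferon-stimulated response element (ISRE) in promoters of antiviral genes. Type II interferon, interferon gamma from T and NK cells, acts through Ifngr1 and Ifngr2 and on the gamma-activated sequence (GAS) in promoters, inducing Irf1, Irf8 and families of large GTPases. In tumours these genes are read in tumour cells, macrophages, dendritic cells and fibroblasts alike, and many respond to both kinds of interferon.

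Promoter windows, from 250 bases before to 50 bases after the gene start, were available from RefSeq (GRCm38.p6) for 28 of the 38 members in 33 windows. The core of the ISRE was searched as GAAANNGAAA and the GAS as TTCNNNGAA, on both strands. Overlapping copies of a motif were counted separately, and the 2 motifs could also overlap each other. The ISRE core stood in 15 of the 33 member windows (45.5%), against 3.44% of all 32851 windows in the table. The GAS stood in 8 of 33 (24.2%), against 8.3% of all windows. By gene, 15 of 28 members (53.6%) had the ISRE core, against 3.99% of all 27025 genes with a window. These were 11 of 22 on the type I list and 4 of 6 on the type II list. The GAS stood in 8 of 28 members (28.6%), against 9.55% of all genes with a window. The windows of Mx1, Mx2, Rtp4, Oas2, Gbp6, Dhx58, Zbp1, Usp18, Iigp1 and Parp14 are not shown or counted. These matches describe the letters of the windows and are not evidence of binding. The 6 windows below belong to members whose values recur in the comparisons, with the ISRE core and the GAS in capitals. Isg15 and Oas1a have overlapping ISRE cores close to the start, Stat2 and Gbp2 a single core on the opposite strand, Igtp a GAS closely followed by an ISRE core, and Irf8 a pair of GAS and no ISRE core.
Isg15, chr4:156200769-156201068, minus strand: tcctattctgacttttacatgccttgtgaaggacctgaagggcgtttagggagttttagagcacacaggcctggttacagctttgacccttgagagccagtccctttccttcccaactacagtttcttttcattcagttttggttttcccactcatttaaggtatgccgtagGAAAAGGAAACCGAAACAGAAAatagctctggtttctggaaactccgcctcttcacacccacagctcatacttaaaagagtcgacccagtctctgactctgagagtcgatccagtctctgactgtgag
Oas1a, chr5:120907476-120907775, minus strand: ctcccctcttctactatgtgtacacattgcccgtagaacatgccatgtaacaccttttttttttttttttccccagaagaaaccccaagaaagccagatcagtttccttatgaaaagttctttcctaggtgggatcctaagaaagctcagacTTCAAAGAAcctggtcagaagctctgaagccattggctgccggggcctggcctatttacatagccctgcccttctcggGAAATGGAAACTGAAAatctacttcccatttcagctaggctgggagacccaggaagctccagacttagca
Stat2, chr10:128270248-128270547, plus strand: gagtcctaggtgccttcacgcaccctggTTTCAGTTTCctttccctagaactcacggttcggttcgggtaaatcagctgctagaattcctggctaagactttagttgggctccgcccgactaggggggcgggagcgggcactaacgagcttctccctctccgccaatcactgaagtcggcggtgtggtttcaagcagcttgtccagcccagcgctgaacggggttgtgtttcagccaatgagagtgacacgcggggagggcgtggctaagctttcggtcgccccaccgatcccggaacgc
Gbp2, chr3:142620413-142620712, plus strand: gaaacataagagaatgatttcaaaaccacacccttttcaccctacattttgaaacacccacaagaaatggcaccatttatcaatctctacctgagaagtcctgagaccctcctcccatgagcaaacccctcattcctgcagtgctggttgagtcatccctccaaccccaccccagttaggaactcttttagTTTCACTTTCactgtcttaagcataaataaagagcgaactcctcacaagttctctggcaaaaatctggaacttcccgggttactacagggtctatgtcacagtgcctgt
Igtp, chr11:58199306-58199605, plus strand: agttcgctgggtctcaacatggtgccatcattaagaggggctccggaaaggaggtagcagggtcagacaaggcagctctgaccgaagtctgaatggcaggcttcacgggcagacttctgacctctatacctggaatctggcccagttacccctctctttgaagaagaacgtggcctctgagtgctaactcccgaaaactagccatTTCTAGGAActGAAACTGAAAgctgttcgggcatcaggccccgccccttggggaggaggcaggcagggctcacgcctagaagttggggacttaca
Irf8, chr8:120736108-120736407, plus strand: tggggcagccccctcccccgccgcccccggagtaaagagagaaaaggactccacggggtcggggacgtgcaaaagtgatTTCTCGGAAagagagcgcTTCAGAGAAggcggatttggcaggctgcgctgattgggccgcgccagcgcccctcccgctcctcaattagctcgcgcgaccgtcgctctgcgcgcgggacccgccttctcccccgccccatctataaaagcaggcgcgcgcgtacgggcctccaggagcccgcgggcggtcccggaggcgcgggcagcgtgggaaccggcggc

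Read along the gene's strand, the 3 overlapping ISRE cores of Isg15 began 78, 72 and 66 bases before the start, and those of Oas1a 20 and 14 bases before it. Igtp had its GAS at 45 and its ISRE core at 34 bases before the start. The core of Gbp2 began 59 and that of Stat2 222 bases before the start. Among members that were called higher in stroma than in epithelium (below), 8 of the 10 with a window had the ISRE core, and among measured members that were not called 4 of 13 had it. For the GAS these counts were 4 of 10 and 3 of 13. This is a description of the windows, without a test.

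**Figure D1:**
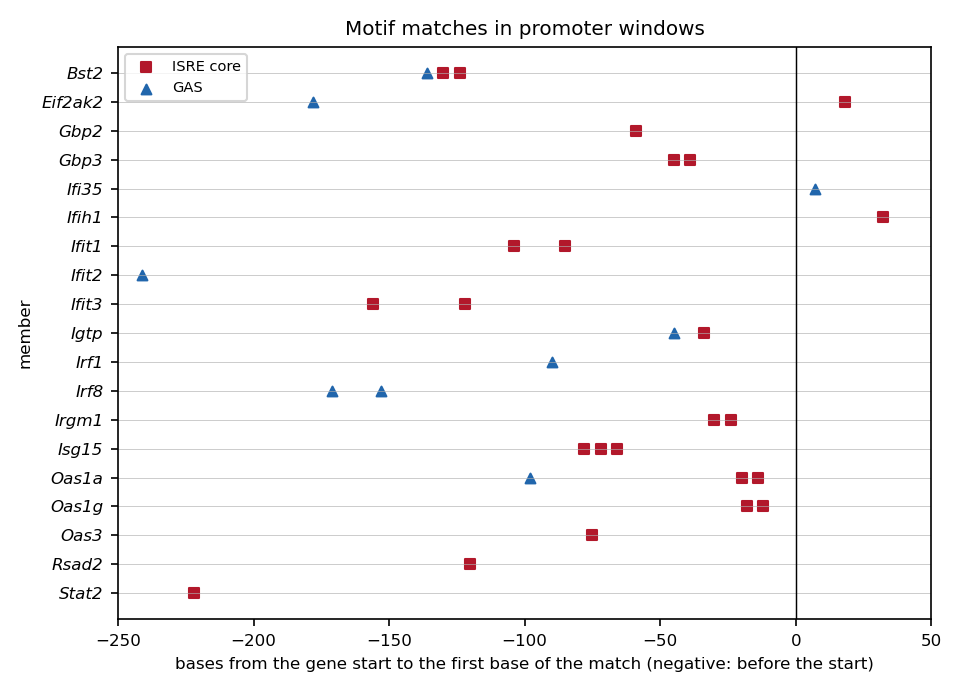
Positions of ISRE core (squares) and GAS (triangles) matches in the promoter windows of the 19 members with at least 1 match, in bases from the gene start. All but 3 genes' ISRE cores begin within 156 bases before the start, that of Stat2 lies 222 bases before it, and those of Eif2ak2 and Ifih1 lie 18 and 32 bases after it.

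Between 36% and 46.3% of probes were well above background in the tumour channel of an array, saturation was not seen, and precision is set by having 3 arrays a group. Epithelial arrays share a slide and stromal arrays share another, so slide and compartment cannot be told apart. The genotypes occupy different rows of each slide, so row and genotype cannot be told apart either. The Rarb probe gave 0.24 ± 1.26 in KO and 0.285 ± 0.91 in WT epithelium, and 1.497 ± 0.81 in KO and 0.36 ± 0.89 in WT stroma (SD, n = 3 each). Neither difference was called by limma (adjusted p = 0.994 and 0.402), and the labels do not tell if the probe lies in the deleted stretch, so it checks nothing about the labels. The Wnt1 transcript gave 7.26 ± 0.27 and 7.35 ± 0.28 in KO and WT epithelium but 3.24 ± 0.49 in KO and 6.77 ± 0.37 in WT stroma. WT stroma arrays correlated with WT epithelium arrays at a mean r of 0.807 over genes, and KO stroma arrays with KO epithelium arrays at 0.567. Among themselves, WT stroma arrays correlated at 0.818 and KO stroma arrays at 0.813. By this measure WT stroma arrays were about as like WT epithelium arrays as like one another. Genes are not independent replicates in these correlations. In stroma Wnt1 was lower in KO by a log2 difference of -3.53 (limma adjusted p = 0.000859), so the 2 stromas differed in how much transcript of the epithelial transgene they carried. In bulk samples, fewer cells of a type and less RNA per cell cannot be told apart.

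In stroma against epithelium of the same tumour, 15 of the 30 measured members were higher at an adjusted p under 0.05 and none was lower. Over all 13348 genes, 8.38% were called higher and 6.62% lower. All 30 members had a positive difference, with a median of 0.99 (type I 1.01, type II 0.83) against -0.03 over all genes, and 23 of 30 had an unadjusted p under 0.05 against 31.2% of all genes. The called members were antiviral effectors (Oas1a, Oas2, Oasl2, Bst2, Zbp1, Parp14), the ubiquitin-like modifier Isg15 and its protease Usp18, the RNA helicase regulator Dhx58, the transcription factors Stat2 and Irf8, and the GTPases Gbp2, Gbp3, Igtp and Irgm1. In 14 members stroma was above epithelium in every tumour with a value (Oasl1 has no value for WT tumour 3), which held for 8.07% of all genes.

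**Figure D2:**
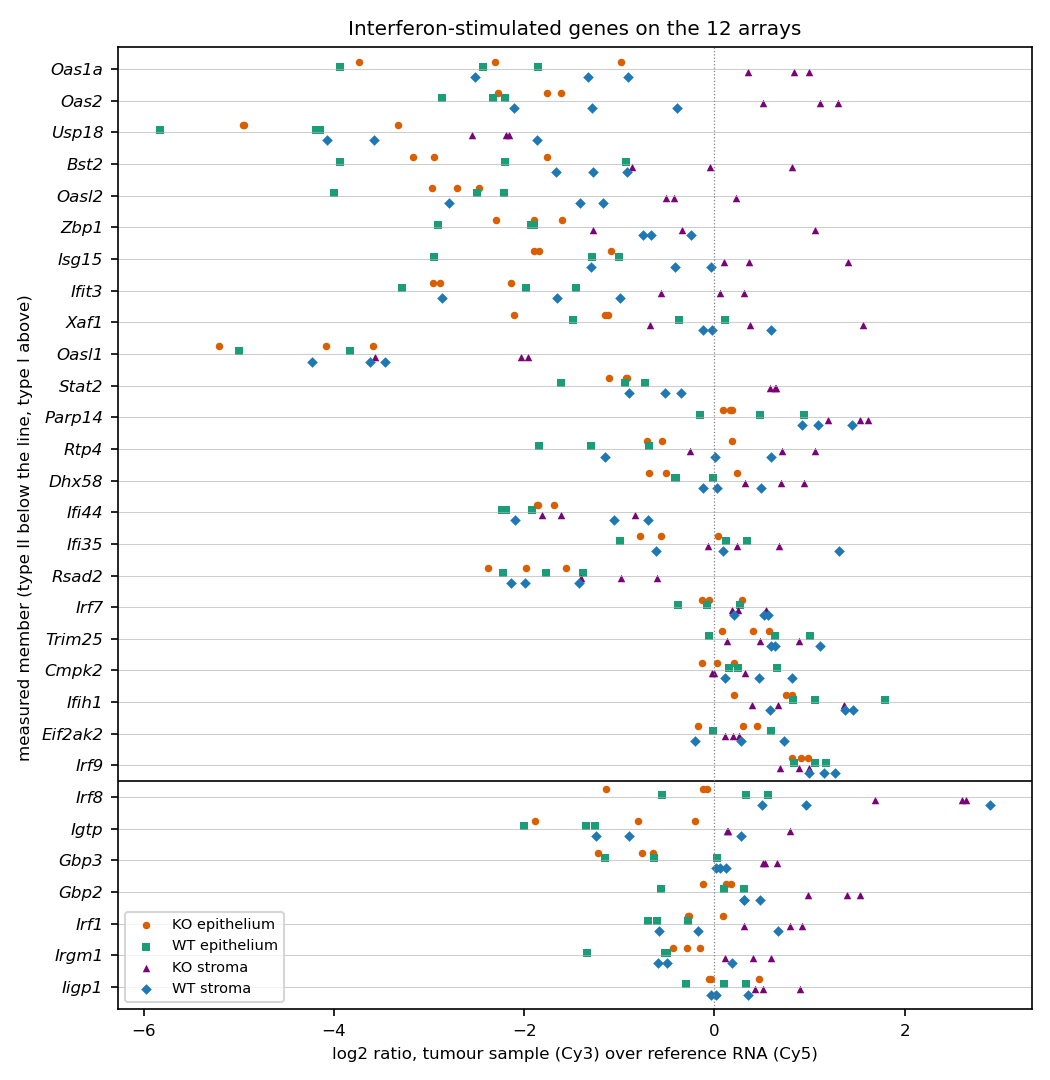
Log2 ratio of tumour sample over reference (horizontal axis) for each of the 30 measured members on the 12 arrays, with 1 point per array and type II genes below the line. For Oas2 the KO stroma points lie between 0.51 and 1.30, to the right of the other 9 arrays, while the 4 groups overlap for Irf9 and Eif2ak2.

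The 2'-5' oligoadenylate synthetases make the second messenger that activates an RNA-degrading enzyme in infected cells. Oas2 read 1.11, 1.30 and 0.51 in KO stroma and -1.29, -2.10 and -0.39 in WT stroma, against -1.76, -1.62 and -2.28 in KO epithelium and -2.32, -2.20 and -2.87 in WT epithelium (arrays in the order of their numbers here and below). Every stromal array but WT stroma 2 was above every epithelial array, and the difference was 2.03 (SE 0.285, 4.09-fold, limma adjusted p = 0.008). Oas1a read 0.99, 0.84 and 0.35 in KO stroma and -1.33, -2.52 and -0.91 in WT stroma, against -0.98, -2.31 and -3.74 in KO epithelium and -1.86, -2.43 and -3.94 in WT epithelium. Its spread in KO epithelium, an SD of 1.38, was the widest of any member in that group, and the difference between compartments was 2.11 (SE 0.45, adjusted p = 0.0269). Oasl2, a synthetase-like relative, read 0.23, -0.43 and -0.51 in KO stroma and -1.41, -2.79 and -1.17 in WT stroma. Its epithelial values were -2.47, -2.70 and -2.97 in KO and -2.50, -2.22 and -4.00 in WT, and the difference was 1.79 (SE 0.39, adjusted p = 0.0296), with WT tumour 2 the single tumour in which stroma was lower. Oasl1, a related gene that lacked a value on WT epithelium 3, had a difference of 1.17 that was not called (adjusted p = 0.1).

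Isg15 encodes a small ubiquitin-like protein that is attached to other proteins, and Usp18 removes it and also dampens the type I receptor. Isg15 read 1.40, 0.10 and 0.36 in KO stroma and -0.04, -1.30 and -0.41 in WT stroma, against -1.09, -1.90 and -1.84 in KO epithelium and -1.002, -1.28 and -2.95 in WT epithelium. The KO stroma arrays were the 3 highest, WT stroma 2 lay among the epithelial arrays, and the difference was 1.70 (SE 0.31, adjusted p = 0.0171). Usp18 read -2.16, -2.19 and -2.54 in KO stroma and -4.07, -1.87 and -3.58 in WT stroma, against -3.32, -4.94 and -4.96 in KO epithelium and -4.19, -4.15 and -5.83 in WT epithelium. Its difference was 1.83 (SE 0.35, adjusted p = 0.0196) and positive in all 6 tumours, although WT tumour 1 gave only 0.12.

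Bst2 tethers budding viruses to the cell surface, Zbp1 senses left-handed nucleic acid and can trigger cell death, and Parp14 transfers ADP-ribose. Bst2 read 0.82, -0.04 and -0.87 in KO stroma and -0.92, -1.27 and -1.66 in WT stroma, against -1.75, -2.94 and -3.17 in KO epithelium and -0.93, -2.20 and -3.94 in WT epithelium. WT epithelium was the most scattered group for Bst2 (SD 1.51, the widest of any member there), and the difference was 1.83 (SE 0.28, adjusted p = 0.0102). Zbp1 read 1.06, -0.34 and -1.27 in KO stroma and -0.75, -0.24 and -0.67 in WT stroma, against -1.60, -1.90 and -2.29 in KO epithelium and -1.90, -1.92 and -2.90 in WT epithelium. Every stromal value of Zbp1 was above every epithelial one, despite an SD of 1.17 in KO stroma, the widest there, and the difference was 1.72 (SE 0.24, adjusted p = 0.00808). Parp14 read 1.20, 1.61 and 1.53 in KO stroma and 1.09, 1.45 and 0.92 in WT stroma, against 0.19, 0.10 and 0.16 in KO epithelium and 0.94, 0.48 and -0.15 in WT epithelium. It rose by 1.01 (SE 0.16, adjusted p = 0.0115), and WT epithelium 1 was the one epithelial array that reached the stromal range.

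Among the remaining antiviral genes no difference was called. Ifit3, which binds viral RNA with its relatives, had a difference of 1.498 (adjusted p = 0.062), with WT tumour 1 going the other way at -1.40. Xaf1, a promoter of cell death, had 1.30 (adjusted p = 0.0724), and Rtp4, a chaperone of membrane receptors, 0.97 (adjusted p = 0.0614). Ifi35, Ifi44, Rsad2, Trim25, Cmpk2 and Eif2ak2 had differences from 0.04 to 0.605. Eif2ak2, the kinase that halts translation on double-stranded RNA, was the closest of these to 0.

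Of the cytosolic RNA sensors on the list, Dhx58 rose and Ifih1 did not pass the test. Dhx58 read 0.94, 0.70 and 0.32 in KO stroma and 0.49, -0.12 and 0.03 in WT stroma, against 0.23, -0.51 and -0.69 in KO epithelium and -0.01, -0.42 and -0.40 in WT epithelium. Its difference of 0.69 (SE 0.12, adjusted p = 0.0133) was positive in all 6 tumours, and it was 1.68 with Agilent's processed signals. Ifih1 had a difference of 0.07 (adjusted p = 0.839) and was positive in 3 of 6 tumours.

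Among the transcription factors, the partners of the type I complex parted. Stat2 read 0.65, 0.58 and 0.63 in KO stroma and -0.90, -0.35 and -0.52 in WT stroma, against -0.93, -0.92 and -1.10 in KO epithelium and -0.73, -0.94 and -1.61 in WT epithelium. KO stroma was highest, WT stroma lay between it and most epithelial arrays, and the difference was 1.06 (SE 0.18, adjusted p = 0.0128). Irf9, its DNA-binding partner, read 0.69, 0.99 and 0.89 in KO stroma and 1.15, 0.99 and 1.27 in WT stroma, against 0.99, 0.82 and 0.91 in KO epithelium and 1.17, 0.83 and 1.06 in WT epithelium. The 4 groups of Irf9 overlapped and the difference was 0.03 (SE 0.12, adjusted p = 0.88), turning to -0.06 with median centring of the arrays. Irf7, which amplifies production of type I interferon, read 0.19, 0.54 and 0.24 in KO stroma and 0.52, 0.57 and 0.20 in WT stroma, against 0.29, -0.13 and -0.06 in KO epithelium and 0.27, -0.38 and -0.08 in WT epithelium, a difference of 0.39 (SE 0.16) that was not called (adjusted p = 0.148).

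Irf8, which is needed for the development of macrophages and dendritic cells, read 2.60, 1.69 and 2.65 in KO stroma and 0.96, 2.90 and 0.50 in WT stroma. Its epithelial values were -0.12, -0.07 and -1.14 in KO and 0.33, 0.57 and -0.55 in WT. WT stroma 2 was the highest array of all and made WT stroma the group with the widest spread of any member there (SD 1.28), and the difference between compartments was 2.05 (SE 0.315, 4.14-fold, adjusted p = 0.0103). Irf1, an early target of interferon gamma, read 0.92, 0.31 and 0.80 in KO stroma and -0.58, 0.67 and -0.17 in WT stroma, against -0.27, 0.09 and -0.28 in KO epithelium and -0.70, -0.27 and -0.61 in WT epithelium. It was higher in stroma in all 6 tumours, but its difference of 0.66 (SE 0.18) fell just short of the threshold (adjusted p = 0.0531).

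The interferon gamma-induced GTPases attack vacuoles that hold intracellular parasites and bacteria. Gbp2 read 1.40, 1.53 and 0.98 in KO stroma and 0.31, 0.48 and 0.32 in WT stroma, against -0.12, 0.12 and 0.17 in KO epithelium and 0.10, 0.31 and -0.56 in WT epithelium, a difference of 0.83 (SE 0.16, adjusted p = 0.02). Gbp3 read 0.53, 0.51 and 0.65 in KO stroma and 0.12, 0.01 and 0.06 in WT stroma, against -0.76, -1.23 and -0.65 in KO epithelium and 0.02, -0.63 and -1.15 in WT epithelium, a difference of 1.05 (SE 0.17, adjusted p = 0.0117). Both were higher in stroma in all 6 tumours. Igtp read 0.79, 0.14 and 0.13 in KO stroma and -1.24, 0.28 and -0.90 in WT stroma, against -0.81, -1.88 and -0.20 in KO epithelium and -1.25, -1.35 and -2.001 in WT epithelium, and rose by 1.12 (SE 0.29, adjusted p = 0.0458). Irgm1, which regulates the other GTPases of its family, read 0.60, 0.11 and 0.40 in KO stroma and -0.59, 0.19 and -0.49 in WT stroma, against -0.15, -0.43 and -0.28 in KO epithelium and -0.52, -0.50 and -1.34 in WT epithelium. Its difference of 0.57 (SE 0.15, adjusted p = 0.048) was the smallest that was called. Iigp1 had 0.28 and was not called (adjusted p = 0.14).

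Of these 15 calls, those of Bst2, Gbp3, Irf8, Parp14, Stat2 and Zbp1 were made in all 13 other settings of the analysis and that of Oas2 in all 12 in which its probe was kept. The others were lost in some settings: Dhx58 was called in 11 of 12, Isg15 in 10 of 13, Gbp2, Oas1a and Usp18 in 9 of 13, Oasl2 in 7 of 12, Igtp in 4 of 13 and Irgm1 in 3 of 13. Near-identical genes, such as Ifit3 and its copy, the Oas1 cluster and the Gbp family, can share a probe's signal, so those values may mix family members. The dimmer second probes of Isg15 and Oas1a gave smaller differences between compartments (0.69 and 0.71), and that of Zbp1 gave 0.19. With the mean of its 2 kept probes Zbp1 was higher in stroma by 0.95.

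Cell type markers moved with the compartments too. Of 10 measured macrophage markers 9 were called higher in stroma (median 1.86) and of 10 fibroblast markers 8 (median 2.95). Of 10 luminal markers 9 were called lower (median -1.215 over the 10), and 1 of 11 T and NK cell markers, Cd4, was called higher (median 1.41). The part of these cell types in the compartment differences of the interferon-stimulated genes was not tested.

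The same comparison was made within each genotype. In KO tumours 14 of 30 members were higher in stroma and none was lower, against 10.2% and 9.85% of all genes, with a median of 1.27 against -0.03. An unadjusted p under 0.05 was reached by 22 of 30 members and 34.9% of all genes, and 23 of 30 members were higher in stroma in all 3 KO tumours, as were 25.2% of all genes. Oas1a (3.07), Oas2 (2.86), Irf8 (2.76), Bst2 (2.59), Ifit3 (2.59), Oasl2 (2.48), Isg15 (2.23), Usp18 (2.11), Zbp1 (1.745), Stat2 (1.60), Gbp3 (1.445), Parp14 (1.30), Gbp2 (1.25) and Dhx58 (0.98, or 2.63 with processed signals) were called, with limma adjusted p between 0.00619 and 0.029. The count fell to 4 without KO tumour 3 (Bst2, Irf8, Oas2 and Stat2) and to 8 without KO tumour 4. The share of all genes called higher fell as well, from 10.2% to 4.38% and 3.86%. In KO epithelium Ifit3 and Dhx58 were well above background on 1 of 3 arrays and Oas2 on 2. Their differences therefore rest partly on epithelial values near background. With processed signals Ifit3 had 4.55 and was not called (limma adjusted p = 0.0835). In WT tumours no member was called by limma, and 1 gene in all was (0.00749%), while 10 of 30 members had an unadjusted p under 0.05 against 8.81% of all genes. The median difference in WT tumours was 0.54 against 0.02, and 16 of 30 members were higher in stroma in all 3 WT tumours, as were 16.4% of all genes. The smallest p values on the type I list were those of Zbp1 (1.69, adjusted p = 0.398), Parp14 (0.73), Usp18 (1.55), Oas2 (1.20), Rtp4 (1.09) and Bst2 (1.07), and on the type II list those of Irf8 (1.34), Gbp3 (0.65) and Irgm1 (0.485). Stat2 had 0.51, Irf1 0.50, Irf7 0.49 and Irf9 0.12 in WT tumours, and Irf1 0.83, Irf7 0.29 and Irf9 -0.05 in KO tumours, where they were not called.

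**Figure D3:**
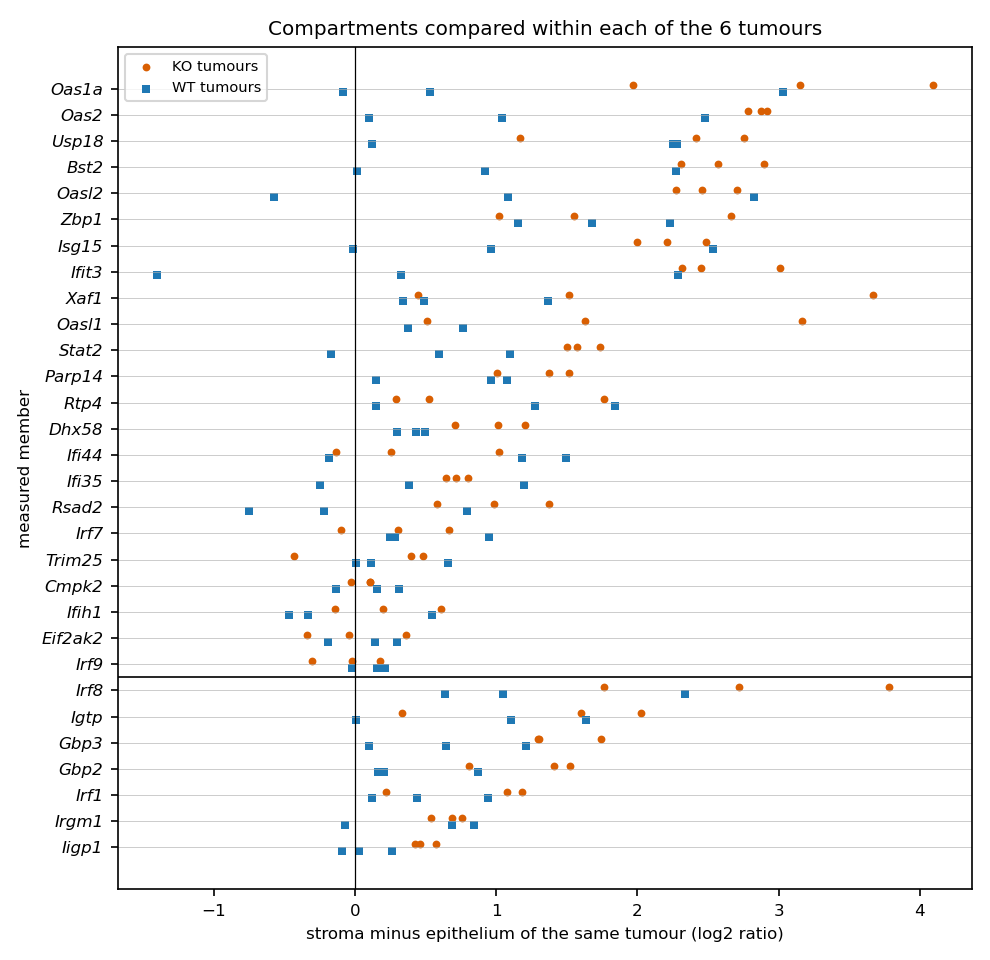
Stroma minus epithelium of the same tumour, as a log2 ratio, for each measured member, with 1 point for each of the 3 KO tumours (circles) and the 3 WT tumours (squares). For Oas2 the KO tumours lie together between 2.78 and 2.92, while the WT tumours spread from 0.10 to 2.48.

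The members called between the stromas and Isg15 are given tumour by tumour. For Oas2 the difference was 2.87, 2.92 and 2.78 in KO tumours and 1.04, 0.10 and 2.48 in WT tumours. For Isg15 it was 2.49, 1.999 and 2.21 in KO and 0.96, -0.02 and 2.54 in WT tumours. WT tumour 3 lay below all KO tumours for Oas2 and just above all of them for Isg15, and WT tumour 2 was near 0 for both genes. For Usp18, Irf8, Igtp and Ifi35 it was instead WT tumour 2 that had the largest difference of the WT tumours (2.28, 2.335, 1.64 and 1.20). Zbp1 was higher in stroma by 1.16, 1.68 and 2.23 in the 3 WT tumours, and Dhx58 by 0.50, 0.30 and 0.43. For Stat2 the differences were 1.57, 1.5 and 1.74 in KO and -0.17, 0.60 and 1.10 in WT tumours, and for Gbp2 1.52, 1.41 and 0.81 in KO and 0.21, 0.16 and 0.87 in WT tumours. Every KO tumour was above every WT tumour for Stat2. For Gbp2 the highest WT tumour lay just above the lowest KO tumour. WT epithelium 3 was the lowest of the 12 arrays for 17 of 30 members, against 14.5% of all genes, and it is the partner in WT tumour 3. That array also had 211 nonuniform spots, against at most 16 on any other array. Whether this bears on its low values was not tested.

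The difference between the genotypes in this compartment contrast was tested as an interaction, which is also the difference of the KO effect between stroma and epithelium. No member was called by limma, nor was any of the 13348 genes, and 6 of 30 members had an unadjusted p under 0.05 against 18.1% of all genes. The members' median was 0.56 against -0.06 over all genes. The smallest p values belonged to Stat2 (1.09, adjusted p = 0.193), Oas2 (1.65, 0.21), Bst2 (1.525, 0.227), Gbp2 (0.83, 0.238), Ifit3 (2.19, 0.251), Dhx58 (0.57, 0.268), Rsad2 (1.04, 0.281), Gbp3 (0.79, 0.281) and Irf8 (1.42, 0.297). The calls in KO tumours and their absence in WT tumours are therefore not shown to differ.

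Between KO and WT stroma, 3 of the 30 members were higher in KO and none was lower. Over all genes 3.51% were higher and 2.87% lower, 6.38% in all (468 and 383 genes, but 50 and 151 with median centring). An unadjusted p under 0.05 was reached by 11 of 30 members and by 21.5% of all genes. The called members were the synthetase Oas2, the signalling factor Stat2 and the GTPase Gbp2. In all, 23 of 30 members had a positive difference, including 7 of 7 on the type II list, and the median was 0.68 (type I 0.52, type II 0.70) against -0.01 over all genes. In 11 of 30 members, Isg15, Ifit3, Oas1a, Oas2, Oasl2, Stat2, Rsad2, Bst2, Gbp2, Gbp3 and Iigp1, every KO stroma array lay above every WT stroma array, which held for 13.2% of all genes, and in none did every KO array lie below, which held for 13.1%. This comparison uses the same stromal arrays as the comparison of compartments, so the 2 are not independent.

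**Figure D4:**
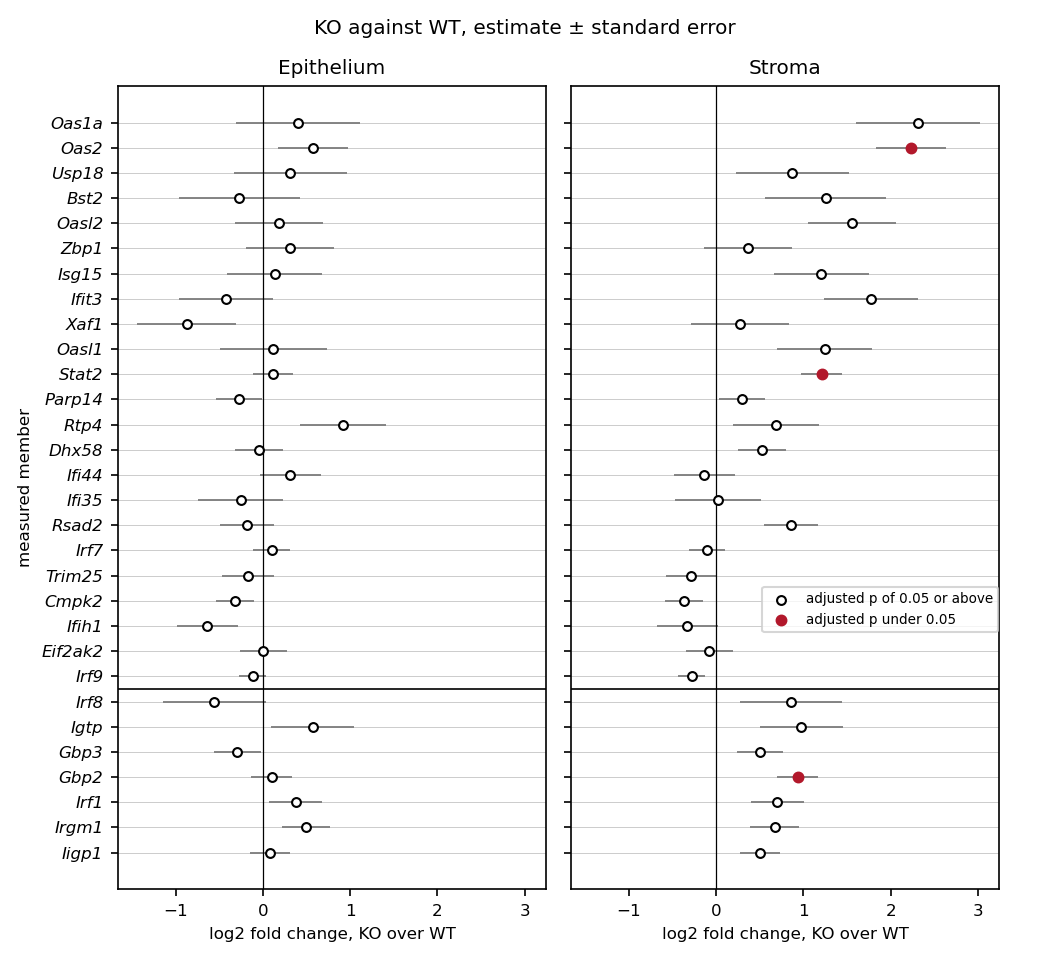
Log2 fold change of KO over WT with its standard error for each measured member, in epithelium (left) and stroma (right), with filled points for an adjusted p under 0.05. In stroma Oas2, Stat2 and Gbp2 are filled and 23 of 30 points lie right of 0, while in epithelium no point is filled.

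Oas2 was 4.70-fold higher in KO stroma (log2 difference 2.23, SE 0.40, limma adjusted p = 0.0146). Its 3 KO arrays lay between 0.51 and 1.30 and its 3 WT arrays between -2.10 and -0.39. Stat2 was 2.31-fold higher (1.21, SE 0.23, adjusted p = 0.0172), and its KO arrays agreed closely, with an SD of 0.03 against 0.28 in WT stroma. Gbp2 was 1.91-fold higher (0.94, SE 0.24, adjusted p = 0.0427), with 1.40, 1.53 and 0.98 in KO and 0.31, 0.48 and 0.32 in WT. None of these calls was made with median centring in place of loess (adjusted p 0.0587, 0.0986 and 0.198), nor without WT stroma 1 (0.0586, 0.0724 and 0.135). With Agilent's processed signals Oas2 was not called (2.89, adjusted p = 0.0517). With only the 6 stromal arrays in the fit Stat2 alone was called, without KO stroma 1 Oas2 alone, and without KO stroma 3 or WT stroma 2 Oas2 and Stat2. Without WT stroma 3 Oas2, Stat2 and Ifit3 were called.

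Other members had differences as large without passing the test. Oas1a had 2.31 (SE 0.71, adjusted p = 0.0807), and it was called at 1.60 (adjusted p = 0.0478) when its 2 kept probes were averaged. Ifit3 read 0.31, -0.56 and 0.05 in KO and -2.86, -1.66 and -0.99 in WT stroma, against -2.14, -2.88 and -2.96 in KO and -1.46, -1.99 and -3.28 in WT epithelium. It had a difference of 1.77 (SE 0.54, adjusted p = 0.079) between the stromas and was called without WT stroma 3 (2.19, adjusted p = 0.0475). Oasl2 had 1.55 (adjusted p = 0.0963). Rsad2, which makes a nucleotide that stops viral polymerases, read -0.98, -1.40 and -0.61 in KO and -2.13, -1.99 and -1.43 in WT stroma, against -1.56, -2.38 and -1.99 in KO epithelium and -1.38, -1.77 and -2.22 in WT epithelium. No WT stroma array was above background for Rsad2 and all 3 KO stroma arrays were. The means of the Cy3 channel gave 1.7-fold higher in KO, with WT signals that were not well above background. That fold takes no account of the spread between arrays, and the difference was not called (limma adjusted p = 0.134). The fold set the mean of the KO arrays against a floored WT signal. On each WT array that was the probe's own signal or the dimmest signal well above background, whichever is higher. Here this gave the fold of the probe's own means, so it is not a lower bound. Without a dye swap the fold is open to dye bias. Isg15 had 1.21 (adjusted p = 0.229), with 0.32 from its second probe, and Bst2 1.26 (adjusted p = 0.338).

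Among the transcription factors only Stat2 was called. Irf8 had a difference of 0.86 (SE 0.59, adjusted p = 0.452), with WT stroma 2 above all 3 KO arrays. Irf1 had 0.70 (SE 0.30, adjusted p = 0.207), Irf7 -0.105 (SE 0.21, adjusted p = 0.824) and Irf9 -0.28 (SE 0.16, adjusted p = 0.346). For Irf9 the KO and WT stroma values met at 0.99. Of the GTPases other than Gbp2, Irgm1 had 0.67 (adjusted p = 0.189) and Igtp 0.97 (adjusted p = 0.272). The largest negative difference was that of Cmpk2, a mitochondrial nucleotide kinase, at -0.37 (adjusted p = 0.378).

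Cell type markers moved with this contrast. Of 10 measured macrophage and monocyte markers all 10 were higher in KO stroma on average and 3 were called (Fcer1g, C1qc and Aif1), with a median of 1.305. Their summed ratio to the reference was 228 to 402 on KO and 48.3 to 124 on WT stroma arrays, and all 10 were above background on every stromal array. Of 10 fibroblast markers 2 were called higher (Fap and Pdgfra), with a median of 2.35 and summed ratios of 186 to 205 against 22.6 to 59.5. Of 10 measured luminal epithelial markers 5 were called lower in KO stroma (Krt8, Krt18, Elf5, Cldn3 and Esrp1), with a median of -1.43 and summed ratios of 49 to 108 against 256 to 570. Between 8 and 9 of these 10 were above background on each stromal array, Epcam was above it on 0 of 3 KO and 2 of 3 WT arrays, and Cdh1 was above background on none of the 12. On WT epithelium arrays the summed ratios were 43 to 71 for macrophage, 7.23 to 56.1 for fibroblast and 501 to 665 for luminal markers. Each of these ranges overlapped that of WT stroma. None of 11 T and NK cell markers had a positive difference (median -1.235), with summed ratios of 15 to 40 on KO and 20.6 to 371 on WT arrays, the high value being WT stroma 2. The part of these cell types in the members' differences was not tested. In the reference channel the members' median difference between KO and WT stroma was -0.05, against 0.60 in the tumour channel.

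**Figure D5:**
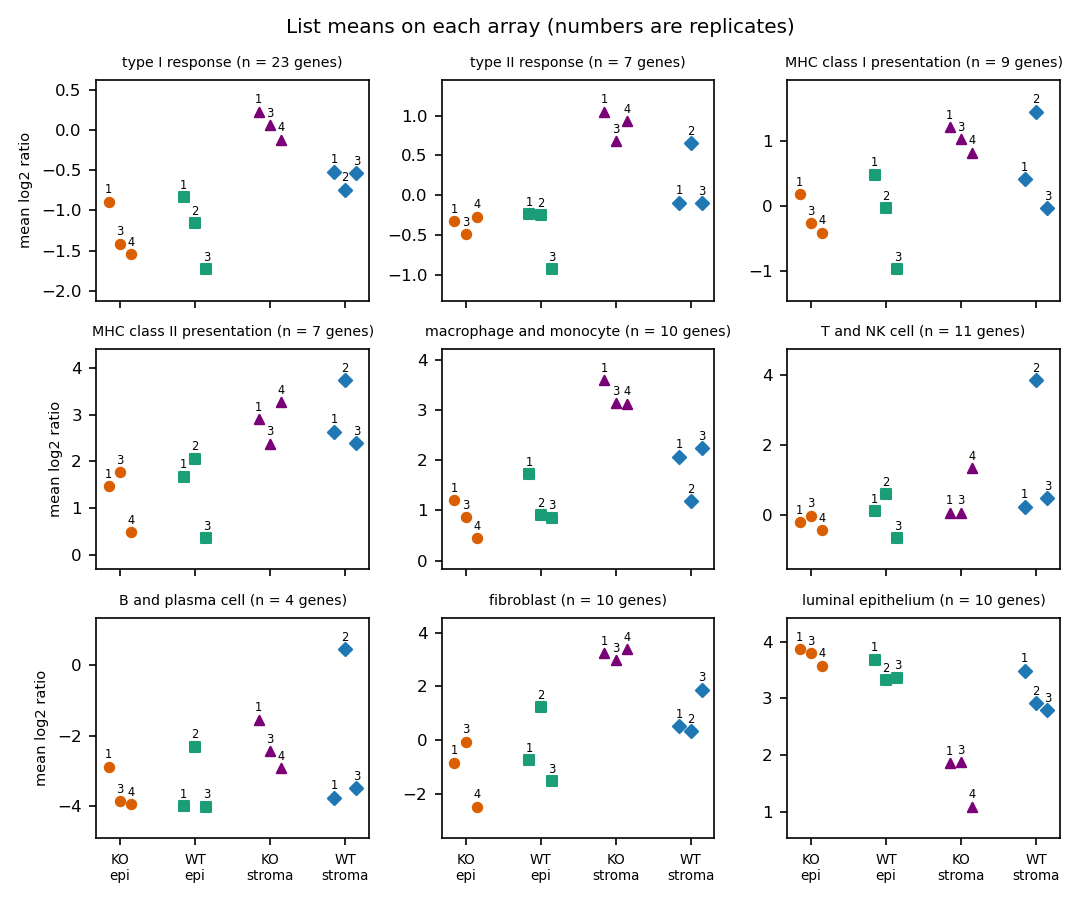
Mean log2 ratio of each gene list on each of the 12 arrays, with replicate numbers beside the points and n the measured genes of the list. The type I list is highest on the KO stroma arrays, the macrophage and fibroblast lists separate KO from WT stroma, and the T and NK cell list is highest on WT stroma 2 at 3.85.

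WT stroma 2 stood apart from the other stromal arrays in its lymphocyte genes. It had the highest mean of T and NK cell markers (3.85), of B and plasma cell markers (0.44) and of MHC class II genes (3.74) of the 12 arrays. For the type II list its mean was 0.65, above -0.09 and -0.10 on the other WT stroma arrays and just below the 0.675 to 1.05 of KO stroma. For the type I list its mean was -0.74, the lowest of the 6 stromal arrays, but its median was -0.35, above the -0.41 of WT stroma 3. The members split on this array. Isg15 (-1.30), Oas1a (-2.52), Oas2 (-2.10) and Oasl2 (-2.79) were at their lowest of the 6 stromal arrays, while Irf8 (2.90), Usp18 (-1.87), Ifi35 (1.315) and Irf7 (0.57) were at their highest of all 12. WT stroma 2 was the highest of the 12 arrays for 4 of 30 members, against 7.8% of all genes. It was the lowest for 0 members, against 7.78% of all genes. The members named for this array were chosen after their values were seen.

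Between KO and WT epithelium no member was called in either direction by limma, and no member had an unadjusted p under 0.05. Over all genes 1 was called (0.00749%) and 8.09% had an unadjusted p under 0.05. The members' median difference was 0.09 (type I 0.01, type II 0.10) against 0.03 over all genes. It turned negative in several other settings, at -0.14 with median centring, where all genes had -0.17, and at -0.15 without WT epithelium 3. The smallest p values on the type I list were those of Rtp4, Ifih1, Xaf1, Cmpk2, Oas2 and Parp14, and on the type II list those of Irgm1, Irf1 and Igtp.

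Rtp4 read 0.18, -0.71 and -0.55 in KO and -0.68, -1.29 and -1.84 in WT epithelium, the largest positive difference of a member at 0.915 (SE 0.49, adjusted p = 0.66). Its groups overlapped, with KO epithelium 3 below WT epithelium 1. Xaf1 read -1.12, -1.15 and -2.10 in KO and 0.11, -0.37 and -1.49 in WT epithelium, the largest negative difference at -0.87 (SE 0.56, adjusted p = 0.696). Ifih1 read 0.81, 0.75 and 0.20 in KO and 1.79, 1.05 and 0.83 in WT epithelium. All its KO arrays were below all its WT arrays, if only just, which held for 4.51% of all genes, and the difference was -0.64 (SE 0.35, adjusted p = 0.663). Every KO epithelium array was above every WT epithelium array for Irgm1 (0.49, adjusted p = 0.667) and Ifi44 (0.31, adjusted p = 0.849), which held for 9.51% of all genes.

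The 3 members called between the stromas were not called in epithelium, and the interaction above is the test of that difference. Oas2 had a difference of 0.58 (SE 0.40, adjusted p = 0.724), Stat2 0.115 (SE 0.23, adjusted p = 0.928) and Gbp2 0.10 (SE 0.24, adjusted p = 0.938). Cmpk2 had -0.32, Parp14 -0.275 and Igtp 0.57, each with an adjusted p of 0.72 or above. Of the other transcription factors Irf1 had 0.38 (adjusted p = 0.772), Irf7 0.10 (0.931), Irf8 -0.56 (0.838) and Irf9 -0.12 (0.885). The signs of Stat2 and Irf7 turned in some settings. With standard errors from 0.16 for Irf9 to 0.71 for Oas1a, these 3 arrays a group do not show that the members were alike in KO and WT epithelium.

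Detection of the interferons themselves varied by gene. Of 10 ligand genes, Ifnb1, Ifna4, Ifne and Ifng were above background on no array, and 4 were measured, namely Ifna1, Ifna2, Ifna5 and Ifnl3. Ifnl3 was above background on all 12 arrays. None was called in either comparison of KO with WT or between compartments. Ifnl3 had the largest differences, 0.42 between KO and WT stroma (adjusted p = 0.415) and 0.40 between compartments (adjusted p = 0.18). Of the 6 receptor genes Ifngr1, the ligand-binding chain for interferon gamma, was 1.63 higher in KO stroma (SE 0.22, adjusted p = 0.00582) and 1.25 higher in stroma than in epithelium (adjusted p = 0.00573). Ifnlr1, the receptor chain for the epithelial type III interferons, fell by 1.86 in KO stroma (SE 0.38, adjusted p = 0.0207), where 1 of 3 arrays was above background, and by 1.49 in stroma against epithelium (adjusted p = 0.00488). Il10rb, its partner, was 0.72 higher in stroma (adjusted p = 0.0295), and Ifnar1 had 0.56 in KO against WT stroma (adjusted p = 0.342). Of the kinases that the receptors carry, Jak1 had 0.67 and Jak2 0.25 between compartments (adjusted p = 0.129 and 0.232), and neither was called between KO and WT stroma. Of the negative regulators Socs1 was higher in stroma by 1.09 (adjusted p = 0.0334), and Ptpn6, a phosphatase of blood cells, had 1.19 (adjusted p = 0.0519). Of 10 measured sensing genes Tlr7 (1.58), Sting1 (1.20) and Ddx58 (0.61) were higher in stroma than in epithelium (adjusted p 0.0149, 0.00679 and 0.0262), and none was called between KO and WT stroma. Within KO tumours the called genes of these lists were Ifngr1 (1.94), Il10rb (1.15), Socs1 (1.68), Tlr7 (2.72) and Sting1 (1.66), higher in stroma, and Ifnlr1 (-2.52) and the phosphatase gene Ptpn2 (-0.845), lower in stroma.

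Antigen presentation, the best known output of interferon gamma, was called higher in stroma than in epithelium for most genes measured and for none between the genotypes in stroma. Of 9 measured MHC class I genes 7 were higher in stroma, namely H2-D1 (1.41), Psmb9 (1.25), Psmb10 (1.20), B2m (1.19), Psmb8 (1.14), H2-K1 (0.96) and Tap2 (0.65), with adjusted p from 0.00573 to 0.0434. Of 7 measured MHC class II genes 5 were higher, namely Cd74 (2.28), H2-Eb1 (2.07), H2-DMb1 (1.71), H2-Ab1 (1.37) and H2-DMa (0.90), with adjusted p from 0.0121 to 0.0412. Within KO tumours H2-D1 (2.185), B2m (1.59), Psmb10 (1.40), H2-K1 (1.18), H2-Eb1 (2.29) and H2-DMb1 (1.98) were called higher. Between KO and WT stroma none of either list was called, and the medians were 0.24 for class I and -0.03 for class II. The chemokine Cxcl9 had 0.89 in KO against WT stroma (adjusted p = 0.499) and 1.23 between compartments (adjusted p = 0.086), Cxcl10 was above background on 1 array and Ido1 on none. Nos2, the other measured gene of that list, had 0.10 and 0.03, and -0.24 in KO against WT epithelium, and was not called. It was above background on 3 WT epithelium arrays, 1 WT stroma array and 0 KO arrays.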

How the data were processed

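Laser-captured epithelium and stroma of 6 MMTV-Wnt1 tumours were read on 12 Agilent arrays, 3 per group. Per the file headers, the deposited files are Agilent Feature Extraction (10.7.3.1) output with linear intensity per spot and channel, background flags and, as a log10 ratio used only in an alternative, Cy5 over Cy3, with controls among the 62976 spots. The deposited value table, on a log2 scale, ran as reference over sample in its epithelial columns, and its scale and centring are not stated; its stromal columns matched no array, so it served only as an alternative for epithelium. The unit of the results here is log2, and per the labels Cy3 is the tumour sample, so ratios were turned to Cy3 over Cy5.

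In limma 3.58.1 (R 4.3.3), median signals were background-corrected with normexp (offset 50) and normalised by loess within arrays, with the 3671 control spots at weight 0 and nonuniform spots set missing. Probes were named through RefSeq accessions (27235 of 55681 probes) and entered the tests if 3 or more of the 12 arrays had Cy3 well above background. A gene with several such probes was represented by the brightest. KO was compared with WT from 4 group means (8 residual degrees of freedom). Compartments and the interaction were compared with the tumour as a block (4 residual degrees of freedom), since epithelium and stroma with the same number come from the same tumour by their labels. Deviations of same-numbered samples correlated at 0.091 to 0.454, and with other tumours at 0.0215 or less. They were taken from the group means, so a positive correlation at the same number lowers those with other tumours by construction. The low values with other tumours are therefore not separate evidence of the pairing. P-values were adjusted over all genes by Benjamini and Hochberg, and an adjusted p under 0.05 is a call. Fits were tested on simulated data. Alternatives changed the signal, normalisation, filter, probe rule, array weights, block and arrays used.

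The members and gene lists were chosen with earlier results of these data known. All members could be named. Each called member is named, or, with fewer than 5 calls, the smallest p values, up to 6 of type I and 3 of type II. The transcription factors are named in each comparison of KO with WT and of compartments. Of pathway lists the called genes are named. One signalling gene of the pathway lists is not reported here.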

Additional observations from a re-analysis of the deposited data

How the results depend on the processing

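Tumour was kept as a replicate block in the compartment comparisons. With no replicate block, 14 members were called between compartments, 15 in KO tumours and 0 in WT tumours, and 0 in the interaction. Of all genes 8.27%, 9.77%, 0% and 0.0524% were called higher in these 4 comparisons. A random replicate block for KO against WT stroma (correlation 0.224) left 3 calls, with 3.33% of all genes called higher.

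Between KO and WT stroma, 0 members were called with median centring, 1 with the 6 stromal arrays alone and 0 to 3 with an array left out. Of all genes 0.375%, 1.07% and 0.532% to 4.14% were called higher in these settings. The median moved to 0.955 with Agilent's processed signals and 0.472 with median centring. Between compartments the median was 0.678 with no filter on dim probes. In KO tumours it was 1.523 with processed signals and 0.918 with no filter. Without 1 tumour 4 to 15 members and 3.86% to 10.8% of all genes were called higher there. In WT tumours the median was 0.783 with processed signals and 0.407 to 0.819 without 1 tumour. The interaction's median was 0.363 with no filter and 0.341 to 0.698 without 1 tumour.

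The members' median in epithelium was -0.136 with median centring, -0.049 with array weights, -0.0419 in the deposited table and -0.193 to 0.217 with an array left out. There Stat2 was at -0.154 with median centring, -0.0152 with array weights and from -0.145 (without WT epithelium 3) to 0.298 with an array left out, and Irf7 from -0.0587 to 0.266, at -0.0283 without KO epithelium 1. Irf9 between compartments was at -0.0648 with median centring and from -0.0227 (without KO tumour 3) to 0.0969 without 1 tumour. Median centring moved the median of all genes from 0.03 to -0.17 between KO and WT epithelium, from 0.02 to -0.09 between the compartments of WT tumours and from -0.06 to 0.05 in the interaction. Genes called higher in KO stroma numbered 468, against 50 with median centring, 288 with processed signals, 143 with the 6 stromal arrays alone and 71 without WT stroma 1. Those called higher in stroma than in epithelium numbered 1118, against 639 with median centring. The cause of these shifts was not tested. Dim members, Rsad2 above all, are limited by signal over background.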

Other observations

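Of the members under the brightness filter, Ifit1, Ifit2, Oas1g and Herc6 were well above background on 0 of 12 arrays with any probe. Oas3, the largest of the synthetases, was above it on 2 arrays, both of WT stroma, and Gbp6 on 1 array, also of WT stroma. No fold is given for these genes.

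The lists of other cell types had no called gene between KO and WT stroma. The median log2 difference was 0.93 over 8 endothelial, 0.81 over 4 neutrophil, 0.17 over 7 dendritic cell, -0.30 over 4 B and plasma cell, 1.84 over 4 adipocyte, 1.42 over 4 erythroid and -1.355 over 8 basal epithelial genes. Between compartments 3 endothelial, 1 neutrophil, 1 adipocyte and 2 erythroid genes were called higher in stroma and 1 basal gene, Krt17, lower. Of 7 dendritic cell genes none was called between compartments. Their differences ran from -0.52 (Xcr1) to 2.14 (Ccr7), 5 positive and 2 negative, with a median of 0.40. Siglech and Flt3, which mark dendritic cells including the main producers of type I interferon, had 0.40 and 0.47. The adjusted p of these 2 was 0.277 and 0.102 in limma.

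KO stroma 1 was the highest of the 12 arrays for 12 of 30 members, against 11.2% of all genes. It was the lowest for 1 member and for 17.4% of all genes. With 36% of probes well above background it was also the dimmest of the 12 arrays. The members spread more widely within groups than other genes, with a median SD of 0.341 in KO epithelium, 0.52 in WT epithelium, 0.375 in KO stroma and 0.415 in WT stroma, against 0.272 to 0.302 over all genes. The weaker of the Xaf1 probes, above background on 2 arrays, was not used.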
